A study of Mus musculus with 2 samples.

Results

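The genes described are 10 members of the chemokine and NF-kB response: the neutrophil-attracting chemokines CXCL1, CXCL2, CXCL5 and CXCL8, the chemokine CCL20, the cytokines LIF, IL6 and IL33, and the NF-kB inhibitors NFKBIA and TNFAIP3. They were chosen by name, with their values in these libraries already known, and each name was looked up in a deposited table that holds 56990 genes and merged loci after rows with the same label were summed. Each of the 10 had a single row of its own, and 0 stood in a locus merged with another gene. RNA was sequenced from xenografts of 1 metastatic and 1 primary gastroenteropancreatic neuroendocrine tumor, which are human tumors carried in mice. The host in both cases was the athymic nude mouse (strain Foxn1nu), which lacks a working thymus and so most T cells, and the labels give no treatment for either. The metastatic tumor was grown in the peritoneal cavity and the primary tumor in the flank, so graft site and tumor origin cannot be told apart. Excised tumors had been dissociated with a kit made for mouse tumors before RNA was taken from the cell pellet. The sample titles share a stem, and whether both tumors came from the same patient was not established here. There was 1 library for each tumor, so no difference below has a replicate check, and no test or p-value is given.

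NF-kB is a family of dimeric transcription factors held in the cytoplasm by IkB proteins such as the product of NFKBIA. Signals from the TNF, interleukin-1 and Toll-like receptors activate IkB kinase, the IkB protein is degraded, and the freed dimers switch on chemokine and cytokine genes together with their own inhibitors, NFKBIA and TNFAIP3. In epithelial tumors these chemokines recruit neutrophils and other leukocytes. IL-33 differs from the rest in being stored in the nucleus and released when a cell is damaged, after which it signals through the receptor ST2.

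IL33 was the member that was higher in the metastatic tumor. The other 9 members had the lower value there, although CXCL8 was nearly level and IL6 was below 1 FPKM in both tumors. The members were picked on this contrast, so the count is only a description. IL33 stood at 22.6 FPKM in the metastatic and 0.377 FPKM in the primary tumor. FPKM divides the fragments sequenced from a gene by its transcript length, so levels can be compared between genes, and by a fragment total of the library. Which total was used here is unclear, because 41.9% of low values stood in small whole-number ratios between the columns, so every ratio below may carry a difference in depth. The deposited values differed 59.9-fold, and the log2 ratio was 4.10 after a pseudocount of 1 FPKM was added to both values, as for every log2 ratio below (metastatic over primary). The pseudocount exceeds the value of IL33 in the primary tumor and so lowers its ratio. In bulk RNA, fewer cells of a type and less RNA per cell cannot be told apart, here and below. Among 13811 entries of at least 1 FPKM in at least 1 library, called expressed below, IL33 had the 22nd highest log2 ratio. IL33 was picked on this same contrast and reached 1 FPKM only in the metastatic tumor, so nothing is read from its rank. The median log2 ratio of those entries was 0.03, so a lower value in the metastatic tumor was common among them too. By level, IL33 came after LIF and NFKBIA in the metastatic tumor and was the lowest of the 10 members in the primary tumor.

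**Figure D1:**
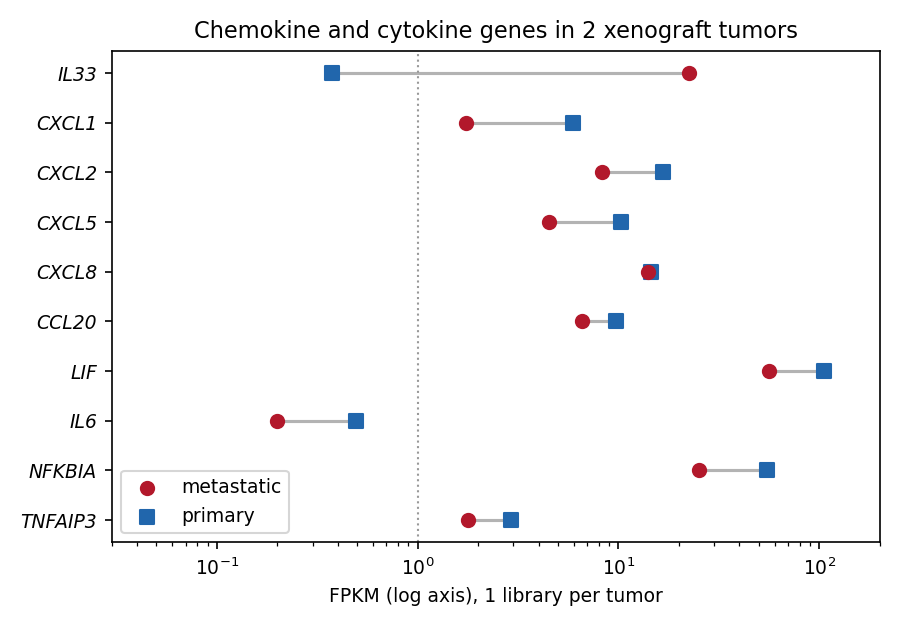
FPKM of the 10 genes in the metastatic (red circles) and the primary tumor (blue squares), on a log axis, with 1 library per point and a dotted line at 1 FPKM. IL33 has the red circle to the right, at 22.6 against 0.377 FPKM, while the circle lies left of the square for the other 9 genes and nearly on it for CXCL8.

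The 4 neutrophil-attracting chemokines did not differ by the same amount. All of them bind the receptor CXCR2, and CXCL8 also binds CXCR1. CXCL1 stood at 1.73 FPKM in the metastatic and 5.94 FPKM in the primary tumor, a log2 ratio of -1.34. CXCL5 stood at 4.53 FPKM in the metastatic and 10.3 FPKM in the primary tumor, a log2 ratio of -1.03. Both were at least 2-fold lower, the difference used here to call a gene. CXCL2 stood at 8.29 FPKM in the metastatic and 16.6 FPKM in the primary tumor, a log2 ratio of -0.92, which lies just inside 2-fold. CXCL8 stood at 14.1 FPKM in the metastatic and 14.6 FPKM in the primary tumor, a log2 ratio of -0.05. CXCL8 was thus nearly level while CXCL1 was 3.42-fold lower by the deposited values. CXCL8 has no counterpart in the mouse genome, but the treatment of mouse reads is unknown and their part in these values was not tested. Of the summed FPKM of these 4 genes, 28.6 in the metastatic and 47.4 in the primary tumor, CXCL8 gave 49.1% in the metastatic and 30.7% in the primary tumor. CXCL1, CXCL2 and the unlisted CXCL3 are close copies, and the way fragments were shared among them is not given in the sources used here, so their single values are less certain than that of CXCL8.

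CCL20, which attracts cells carrying the receptor CCR6, stood at 6.62 FPKM in the metastatic and 9.71 FPKM in the primary tumor, a log2 ratio of -0.49. LIF, a cytokine of the interleukin-6 family, was the most abundant member in both tumors. It stood at 56.3 FPKM in the metastatic and 106 FPKM in the primary tumor, a log2 ratio of -0.90. The antisense gene LIF-AS1 had 11.3 FPKM in the metastatic and 13.9 FPKM in the primary tumor, and whether fragments were assigned by strand is not given in the sources used here. IL6 was at 0.2004 FPKM in the metastatic and 0.496 FPKM in the primary tumor, below 1 FPKM in both, and it entered no count of expressed members.

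The inhibitor genes were also lower. NFKBIA, encoding IkB-alpha, stood at 25.1 FPKM in the metastatic and 55.2 FPKM in the primary tumor, a log2 ratio of -1.11. TNFAIP3, encoding the ubiquitin-editing enzyme A20, stood at 1.78 FPKM in the metastatic and 2.92 FPKM in the primary tumor, a log2 ratio of -0.49. NFKBIA therefore passed the 2-fold line and TNFAIP3 did not.

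Of the 9 expressed members, 1 passed 2-fold upward in the metastatic tumor and 3 passed it downward. Of all expressed entries, 9.22% passed it upward, 9.35% downward and 18.6% in either direction. The members were picked on this same contrast, so their count is a description and nothing is read from its size. The nearest members on either side of the lower line were CXCL5 at -1.03 and CXCL2 at -0.92. The median log2 ratio of the expressed members was -0.90, and that of all expressed entries 0.03. Without IL33 the other 8 ran from -1.34 to -0.05.

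The contrast named for these genes sets IL33 against the 4 CXCL genes, LIF and NFKBIA. Those 6 genes had a median log2 ratio of -0.98, with 3 past 2-fold downward and 0 upward. IL33 lay 5.08 log2 units above that median and 4.15 above CXCL8, the highest of the 6. The 6 genes themselves spanned 1.30 log2 units. IL33 and these 6 genes were picked on this same contrast, and IL33 reached 1 FPKM only in the metastatic tumor. Nothing is therefore read from the gap or from its size beside that span. The deposited FPKM summed to 885319 in the metastatic and 784987 in the primary library. With each library scaled to the same sum, the median of all expressed entries was -0.13 in place of 0.03, and 5 members were past 2-fold downward, CXCL2 and LIF among them. The share of higher entries among all those past 2-fold was 36.2% after this scaling and 49.6% before it. The same scaling left IL33 at 4.16 and CXCL8 at -0.21.

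**Figure D2:**
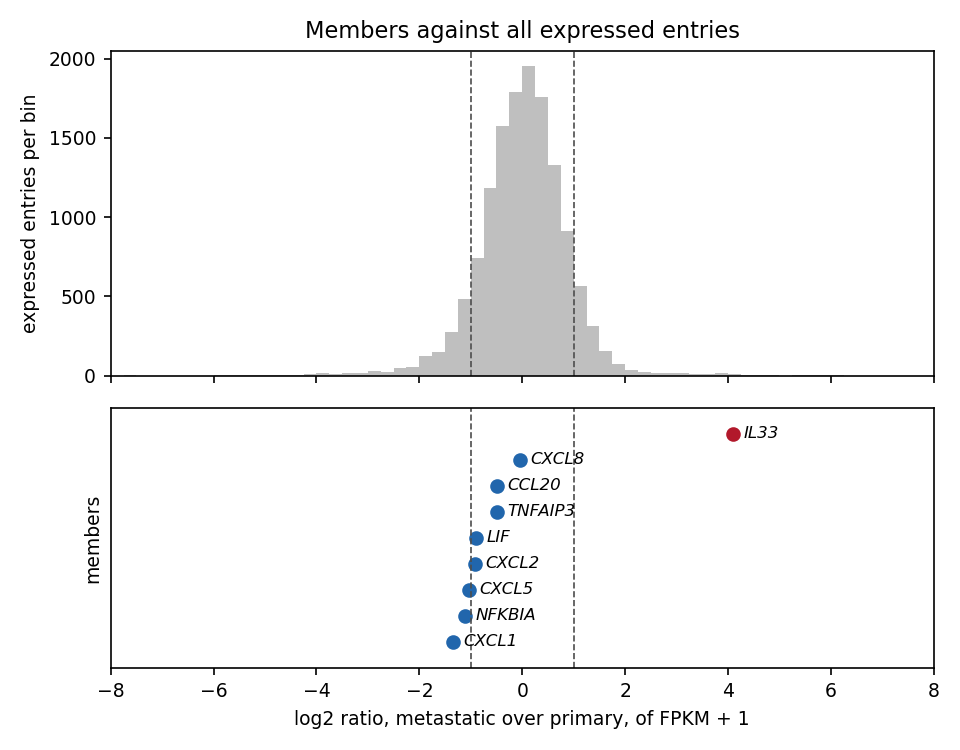
Above, the number of expressed entries in bins of the log2 ratio, metastatic over primary, of FPKM + 1. Below, the 9 expressed members on the same axis in order of their ratio, with dashed lines at 2-fold: IL33 is at 4.10 and the other 8 lie between -1.34 and -0.05.

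Genes whose values in the 2 libraries lay nearest to those of IL33 were taken by distance on the log2(FPKM + 1) scale. The 3 nearest were the glycosyltransferase gene B3GNT8, the trypsinogen PRSS2 and the lipid-binding protein gene OSBPL1A, at 19.9, 27.7 and 26.0 FPKM in the metastatic and 0.644, 0.222 and 0.684 FPKM in the primary tumor. Their distances to IL33 were 0.31, 0.33 and 0.35 log2 units. The next 2 entries, RNU6-1016P and RNU6-313P, are copies of a short nuclear RNA and were listed at 0 in the primary tumor. A likeness over 2 libraries says only that the values are close.

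Within the interleukin-1 family, IL18 was higher together with IL33. Like IL-33, interleukin-18 is made as a precursor in epithelial cells. IL18 stood at 14.3 FPKM in the metastatic and 1.30 FPKM in the primary tumor, a log2 ratio of 2.74. The classical inflammatory ligands of the family were low, with IL1B at 1.52 FPKM in the metastatic and 1.25 FPKM in the primary tumor, and IL1A at 0.0219 FPKM in both. Of 12 expressed genes in a list of 23 interleukin-1 ligands, receptors and adaptors, 2 passed 2-fold upward and 2 downward, and the median log2 ratio was -0.17. Lists of this kind were assembled with earlier results of these data known. For every list below, the share of all expressed entries past 2-fold was 9.22% upward and 9.35% downward. List counts are a description, and nothing is read from their size.

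The signalling genes downstream went both ways. The second higher gene was IRAK1, a kinase of the interleukin-1 and Toll-like receptor complex, at 86.8 FPKM in the metastatic and 31.3 FPKM in the primary tumor. The lower genes were TRAF6, a ubiquitin ligase acting after IRAK1, at 1.41 FPKM in the metastatic and 5.29 FPKM in the primary tumor, and IL1RAP at 2.16 FPKM in the metastatic and 6.17 FPKM in the primary tumor. IL1RAP encodes the accessory chain that the receptors for interleukin-1 and IL-33 share. The gene of the IL-33 receptor, IL1RL1, was listed only in a locus merged with IL18R1, at 0.830 FPKM in the metastatic and 0.848 FPKM in the primary tumor. IL1R1, the interleukin-1 receptor, stood just inside 2-fold, at 9.71 FPKM in the metastatic and 20.1 FPKM in the primary tumor, and was past it with smaller pseudocounts and under each of the 3 scalings.

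In the interleukin-6 family, LIF was accompanied by IL11, another ligand of the same family, which was not lower. IL11 stood at 77.7 FPKM in the metastatic and 45.3 FPKM in the primary tumor, a log2 ratio of 0.77. IL11 was thus above LIF in the metastatic tumor and below it in the primary tumor. LIFR, the specific receptor chain of LIF, was at 0.303 FPKM in the metastatic and 1.001 FPKM in the primary tumor, inside 2-fold but past it downward with a pseudocount of 0.1 FPKM. IL6ST, the shared chain gp130, was at 5.44 FPKM in the metastatic and 10.02 FPKM in the primary tumor. Of 11 expressed genes among 18 listed, 1 passed 2-fold upward and 1 downward, and the median was -0.62. The higher gene was the interleukin-6 receptor IL6R, at 2.96 FPKM in the metastatic and 0.629 FPKM in the primary tumor. The lower gene was SOCS3, an inhibitor induced by STAT3, at 0.262 FPKM in the metastatic and 3.34 FPKM in the primary tumor. IL6R and SOCS3 each reached 1 FPKM in only 1 tumor and were not counted with a filter of 5 FPKM.

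Other chemokines were mostly not expressed. Among 12 further CXC chemokines, 4 reached 1 FPKM, of which 1 passed 2-fold upward and 0 downward, and their median was -0.33. The higher gene was CXCL12, which attracts CXCR4-bearing cells and is not a typical NF-kB target, at 144 FPKM in the metastatic and 51.8 FPKM in the primary tumor. The remaining neutrophil-attracting genes were CXCL3, at 2.15 FPKM in the metastatic and 3.19 FPKM in the primary tumor, and CXCL6, at 0.0947 FPKM in the metastatic and 1.10 FPKM in the primary tumor. CXCL6 had a log2 ratio of -0.94, and was past 2-fold downward with pseudocounts of 0.1 and 0.5 FPKM and with libraries scaled to the same sum. The interferon-induced CXCL10 was at 0.0433 FPKM in the metastatic and 0.303 FPKM in the primary tumor.

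Among 20 CC, C and CX3C chemokines, 5 were expressed outside unresolved merged loci, of which 1 passed 2-fold upward and 2 downward, and their median was 0.24. CCL26, an attractant of eosinophils, stood at 4.17 FPKM in the metastatic and 0.651 FPKM in the primary tumor. CCL28, a chemokine of mucosal epithelium, stood at 0.109 FPKM in the metastatic and 2.46 FPKM in the primary tumor. XCL1 was listed at 0 in the metastatic tumor and at 1.03 FPKM in the primary tumor. CCL26, CCL28 and XCL1 each reached 1 FPKM in only 1 tumor and were not counted with a filter of 5 FPKM. A gene at 0 in 1 tumor that reaches 1 FPKM in the other is always called with this pseudocount. Nothing is read from the direction of these genes. A listed 0 can be a failed estimate where a gene has several rows in the table, as for CCL3, CCL4 and CCL5.

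Of 18 separately listed receptor genes for these and other chemokines, 15 were below 1 FPKM in both tumors, 3 were expressed and 0 were past 2-fold. CXCR2 was at 0.0521 FPKM in the metastatic tumor and at 0 in the primary tumor, and CXCR1 was listed at 0 in both. CXCR4 stood at 2.02 FPKM in the metastatic and 0.854 FPKM in the primary tumor, past 2-fold upward only with a pseudocount of 0.1 FPKM among the alternatives tried. ACKR3, a scavenging receptor for CXCL12, was the highest of them, at 52.1 FPKM in the metastatic and 79.1 FPKM in the primary tumor. CCR10, the receptor for CCL28, stood at 3.03 FPKM in the metastatic and 5.53 FPKM in the primary tumor. CCR6 was listed only in a locus merged with FGFR1OP and is not reported as a gene.

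**Figure D3:**
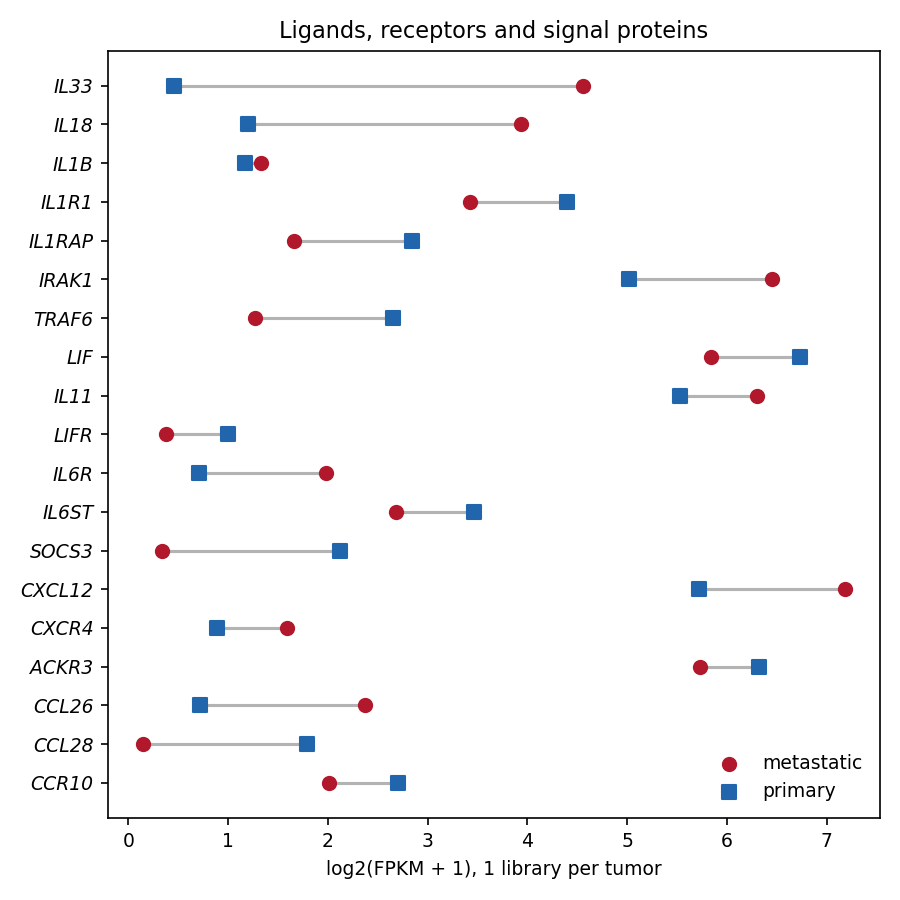
Levels of ligands, receptors and signal proteins as log2(FPKM + 1) in the metastatic (red circles) and the primary tumor (blue squares), 1 library per point. IL33 and IL18 lie to the right in the metastatic tumor while IL1R1, IL1RAP and TRAF6 lie to the left, and CXCL12 lies to the right at 144 against 51.8 FPKM.

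The NF-kB subunits were all expressed and none of the 5 was past 2-fold, with a median log2 ratio of 0.29. NFKB2 stood at 92.7 FPKM in the metastatic and 59.7 FPKM in the primary tumor, RELA at 24.4 FPKM in the metastatic and 16.2 FPKM in the primary tumor. REL, at 1.58 FPKM in the metastatic and 3.26 FPKM in the primary tumor, had a log2 ratio of -0.73 and was past 2-fold downward with a pseudocount of 0.1 FPKM. RELB had the median value. Among 13 expressed IkB proteins and kinases, 0 passed 2-fold upward and 1 downward, and the median was 0.11. The lower gene was BCL3, an atypical nuclear IkB protein, at 37.2 FPKM in the metastatic and 80.2 FPKM in the primary tumor. The IkB kinase gene CHUK stood at 17.9 FPKM in the metastatic and 9.55 FPKM in the primary tumor, inside 2-fold.

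Further NF-kB target and feedback genes were mostly inside 2-fold. Of 14 expressed among 27 listed, 12 lay inside, 1 was higher and 1 lower, with a median of -0.26. The higher gene was BCL2A1, an inhibitor of apoptosis, at 4.74 FPKM in the metastatic and 0.657 FPKM in the primary tumor. The lower gene was TNIP1, which encodes a partner of A20, at 40.8 FPKM in the metastatic and 87.0 FPKM in the primary tumor. The antioxidant enzyme gene SOD2 and the adhesion receptor gene ICAM1, both known NF-kB targets, stood at 219 and 52.8 FPKM in the metastatic and 198 and 72.5 FPKM in the primary tumor. Known targets thus included genes at least 2-fold lower, such as NFKBIA and TNIP1, and genes inside 2-fold, such as SOD2 and CXCL8. They also included a gene at least 2-fold higher, BCL2A1. BCL2A1 reached 1 FPKM only in the metastatic tumor and was not counted with a filter of 5 FPKM, so nothing is read from its direction.

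Of 10 expressed TNF and Toll-like receptor inputs, 0 passed 2-fold upward and 1 downward, and the median was -0.09. The lower gene was TNFRSF1B, a TNF receptor found mainly on leukocytes, at 0.118 FPKM in the metastatic and 2.39 FPKM in the primary tumor. TNFRSF1B reached 1 FPKM only in the primary tumor and was not counted with a filter of 5 FPKM. TNFRSF1A, the TNF receptor of most cells, stood at 34.5 FPKM in the metastatic and 59.0 FPKM in the primary tumor. TNF itself was listed at 0 in both tumors over 8 rows, where a failed estimate cannot be told apart from a low level.

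Immediate early genes, which respond to growth factors, stress and tissue handling and include AP-1 factors that act on CXCL8, IL6 and LIF, held more genes past 2-fold downward than upward. Of 11, all expressed, 6 passed 2-fold downward, 1 upward and 4 did not pass it, and the median was -1.35. Of all expressed entries, 9.35% passed it downward and 9.22% upward. The list was assembled with earlier results known, so its count is a description. FOS stood at 16.1 FPKM in the metastatic and 490 FPKM in the primary tumor, and FOSL1, the higher gene, at 21.6 FPKM in the metastatic and 4.55 FPKM in the primary tumor. FOSB, EGR1, ATF3, DUSP1 and JUN were the other lower genes, with log2 ratios from -4.91 for FOSB to -1.35 for JUN. Their part in the lower chemokine, LIF and NFKBIA values was not tested.

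Among 6 regulators of AU-rich messenger RNAs, the short-lived class to which many cytokine messages belong, 2 passed 2-fold downward and 0 upward, and the median was -0.36. ZFP36, encoding the decay factor tristetraprolin, stood at 17.5 FPKM in the metastatic and 69.3 FPKM in the primary tumor. ZFP36L1 stood at 48.5 FPKM in the metastatic and 137 FPKM in the primary tumor. ZFP36L2 stood at 35.4 FPKM in the metastatic and 68.3 FPKM in the primary tumor, inside 2-fold at -0.93. ZFP36L2 was past 2-fold downward when scaled to the same sum or by the 75th percentile. KHSRP and HNRNPD were inside 2-fold and higher, at 0.21 and 0.38. ELAVL1, which stabilizes such messages, was inside 2-fold at 33.6 FPKM in the metastatic and 27.4 FPKM in the primary tumor.

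**Figure D4:**
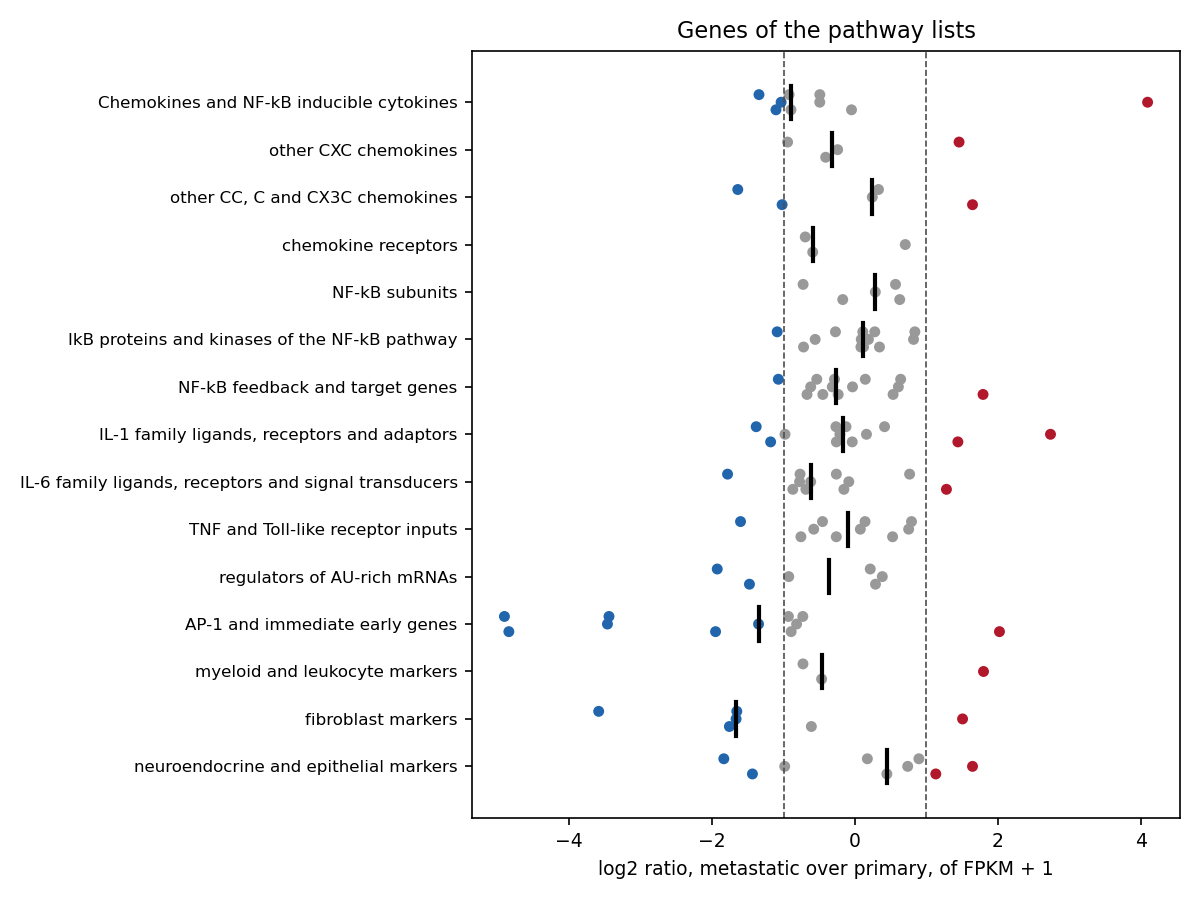
Log2 ratio, metastatic over primary, of FPKM + 1 for each expressed gene of the lists, with points in red at least 2-fold higher, in blue at least 2-fold lower and in grey between, a black bar at each list's median and dashed lines at 2-fold. The NF-kB subunits are all grey with a median of 0.29, and the immediate early genes have a median of -1.35.

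Markers of other cell types bear on chemokine genes because leukocytes, fibroblasts and endothelium also make them. The table lists human genes, stromal cells of a xenograft are largely the host's, and the treatment of mouse reads is unknown, so low human PTPRC or PECAM1 does not show that host leukocytes or endothelium were few. Myeloid and leukocyte markers were near the bottom of the range, with PTPRC, the pan-leukocyte marker, at 0.0403 FPKM in the metastatic and 0.111 FPKM in the primary tumor, and S100A8 and FCGR3B listed at 0 in both. Of the 9 listed separately, 3 were expressed. All 9 together summed to 15.1 FPKM in the metastatic and 9.25 FPKM in the primary tumor, and LYZ made up most of the metastatic sum. Apart from LYZ and ITGAM, those of the 9 above 0 were lower in the metastatic tumor. LYZ, which some epithelia also make, was the gene past 2-fold, at 12.0 FPKM in the metastatic and 2.72 FPKM in the primary tumor. Of 5 endothelial markers 0 were expressed, KDR was listed at 0 in both, and their sum was 0.717 FPKM in the metastatic and 0.649 FPKM in the primary tumor.

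Fibroblast markers did not all go the same way, although more were lower than higher. Of 6 expressed, 4 passed 2-fold downward and 1 upward, with a median of -1.66, against 9.35% downward and 9.22% upward of all expressed entries. The 7 listed separately summed to 160 FPKM in the metastatic and 523 FPKM in the primary tumor, most of it from COL1A2. COL1A2 stood at 149 FPKM in the metastatic and 474 FPKM in the primary tumor, COL3A1 at 1.07 FPKM in the metastatic and 23.9 FPKM in the primary tumor. COL1A1 and FAP were also lower, with log2 ratios of -1.76 and -1.65, and DCN was higher at 1.51. DCN reached 1 FPKM only in the metastatic tumor. PDGFRB was inside 2-fold at -0.61, and LUM was not expressed. Their part in the lower chemokine and cytokine values was not tested. Markers of the labelled tumor type differed in level. The neuronal and neuroendocrine marker UCHL1 stood at 705 FPKM in the metastatic and 225 FPKM in the primary tumor. CHGA was listed at 0 in both tumors over 2 rows, where a failed estimate cannot be told apart from a low level. SYP stood at 1.96 FPKM in the metastatic and 1.63 FPKM in the primary tumor, and INSM1 at 0.271 FPKM in the metastatic and 3.54 FPKM in the primary tumor. SCG2, a granule protein gene, was also lower, with a log2 ratio of -1.44. INSM1 and SCG2 each reached 1 FPKM only in the primary tumor. Of the 10 neuroendocrine and epithelial markers, 9 were expressed, with UCHL1 and KRT8 past 2-fold upward, 2 genes past it downward and a median of 0.45. Those 10 summed to 3130 FPKM in the metastatic and 1491 FPKM in the primary tumor, of which KRT8, an epithelial keratin, made up 1423 FPKM in the metastatic and 649 FPKM in the primary tumor. The median pools both kinds of marker. The epithelial genes KRT8, CDH1, KRT18 and EPCAM were all higher, with log2 ratios of 1.13, 0.90, 0.74 and 0.45. Among the neuroendocrine genes, CHGB, INSM1 and SCG2 were lower, UCHL1 and SYP higher. CHGB stood at 0.336 FPKM in the metastatic and 1.64 FPKM in the primary tumor, inside 2-fold at -0.98. CHGB was past 2-fold downward with smaller pseudocounts and when scaled to the same sum or by the 75th percentile. KRT8 was inside 2-fold, at 0.96, with each library scaled to the same sum.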

How the data were processed

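The data are 1 table with a column of FPKM for each of 2 libraries, 1 metastatic and 1 primary xenograft. The FPKM were computed by the authors before deposit. Tools named in the submitters' processing notes, without a role or order, are Cufflinks 2.2.1, STAR 2.7.6a and bcl2fastq 2.18.0.12, and the build is the human GRCh38. For annotation, filters and host reads, the treatment is not given in the sources used here. Human sequences and coordinates were not used here. The table has no counts, so the depth is unknown and intervals for counting error could not be had. Where both columns lay between 0 and 1 FPKM (6509 rows), 41.9% of the ratios equalled a fraction of whole numbers no larger than 5, within 0.01%.

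Rows with the same label were summed (62573 rows, 56990 entries). A merged row went to a gene if all its other symbols were clones, short, antisense or long intergenic RNAs, which left 831 unresolved loci among 13811 expressed entries. Ratios were log2((metastatic + 1)/(primary + 1)), without rescaling, a gene was expressed from 1 FPKM in a library, and 2-fold was the call. Members and lists were chosen with earlier results of these data known. Genes named are all members, the genes of each list past 2-fold or, in lists with none, up to 4 with the largest ratios, and the 5 nearest to IL33. Others named were chosen after their values were seen. The calculation was run on a copy of the primary column with known fold changes put into entries well above the floor. No noise was added, so this checked the arithmetic only. Python 3.11.15, pandas 2.3.3, NumPy 2.4.6 and matplotlib 3.10.9 were used. The 10 alternatives were pseudocounts of 0.1 and 0.5 FPKM, no filter, a filter of 5 FPKM, a 4-fold call, 3 scalings, the highest of rows with 1 label, and adding every merged locus.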

Additional observations from a re-analysis of the deposited data

How the results depend on the processing

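Over the 10 alternatives, 0 of the 9 expressed members reversed direction in any that gave a value, and TNFAIP3 gave none with a filter of 5 FPKM. Only the 3 scalings could change a sign. Each of them lowered the metastatic FPKM against the primary FPKM, so the 8 lower members could not have reversed and nothing is read from this. IL33 stayed the 1 member past the higher line throughout, with log2 ratios from 4.01 to 5.57, and CXCL8 ran from -0.21 to -0.05. IL33 was picked on this contrast, so that is a description only. IL33 minus the median of the CXCL, LIF and NFKBIA group was 6.63 with a pseudocount of 0.1 FPKM and 5.75 with 0.5 FPKM, since a smaller pseudocount shrinks less the ratio of a gene below 1 FPKM in the primary tumor. The median of that group ran from -1.15 to -0.98. With a 4-fold call 0 members were lower. With each library scaled to the same sum 5 were lower, and the share of higher genes among all called entries was 36.2%, against 49.6% without scaling. With scaling to the 75th percentile 4 were lower, CXCL2 being the added gene. Of 33 list genes past 2-fold that are not members, 1 (KRT8) was inside it with libraries scaled to the same sum, 10 fell under the filter of 5 FPKM and 26 were inside 4-fold. Those 10 were CCL26, CCL28, XCL1, BCL2A1, IL6R, SOCS3, TNFRSF1B, DCN, INSM1 and SCG2, and each reached 1 FPKM in only 1 tumor. Of 79 list genes inside 2-fold, 2 passed it upward and 8 downward with a pseudocount of 0.1 FPKM, and 7 downward after scaling to the same sum. Of 140 list medians recomputed, 3 moved by over 1.5-fold: chemokine receptors without a filter, and the other CXC chemokines and the myeloid markers with a filter of 5 FPKM. No paired analysis was possible because each group has 1 library, and no library could be left out. The unknown depth leaves the error of low values such as IL6, CXCL10 and LIFR unmeasured.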

Other observations

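Several relatives of the members were listed only in loci merged with another protein-coding gene and were counted for none. CLCF1, a cytokine of the LIF family, shares a locus with POLD4 that stood at 129 FPKM in the metastatic and 176 FPKM in the primary tumor. NFKBIZ, an inducible nuclear IkB protein that acts on neutrophil chemokine genes, shares a locus with NXPE3 at 34.6 FPKM in the metastatic and 46.7 FPKM in the primary tumor. PDGFRA, a fibroblast marker, shares a locus with FIP1L1 at 42.8 FPKM in the metastatic and 50.3 FPKM in the primary tumor. The macrophage marker CD68 shares a locus with EIF4A1, a highly expressed translation factor, at 996 FPKM in the metastatic and 870 FPKM in the primary tumor.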
